A study of Mus musculus with 4 samples.

Results

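Bexarotene, a synthetic agonist selective for the retinoid X receptor (RXR), was compared with no treatment in embryoid bodies (EBs) of mouse embryonic stem (ES) cells. Differences were read for every gene with a probe set of exactly 1 gene symbol, 19938 genes in all. The bexarotene array and the untreated array are 2 of the 4 arrays of the study, and each condition has 1 array. The other 2 arrays hold undifferentiated ES cells at day 0 and EBs treated with retinoic acid (RA), and their values are given only for orientation. The cells are the D3 line, and the EBs formed in hanging drops over 2 days before 5 days in suspension. The treated EBs received 50 nM bexarotene, and both EB cultures were collected at day 7. RA, the natural ligand of the retinoic acid receptor (RAR), was given at 5 µM per the sample labels, while the article names a lower dose. EBs are mixtures of many cell types from 1 culture per condition, so less RNA per cell and fewer cells of a type cannot be told apart. No p-value can be had without replicates, and each difference below is one between 2 arrays.

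RXR binds DNA together with a partner receptor. RAR is one such partner and is known in the embryo for its control of Hox genes and of the posterior limit of the forebrain. The liver X receptors (LXR), the peroxisome proliferator-activated receptors (PPAR), the vitamin D receptor and the thyroid hormone receptors are others, and each pair reads its own set of target genes. An RXR agonist can in principle act through several of them. In EBs the germ layers arise together without an embryonic axis, and retinoid signalling is widely used to direct such cells towards neural and posterior fates.

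Signal is a log2 value per probe set, and differences are bexarotene minus untreated on that log2 scale. The count of higher or lower genes takes those with a probe set past 1.5-fold and none past it in the other direction. By this count 304 genes were higher, 1.52% of those measured, and 437 were lower, 2.19%, which makes 3.72% in either direction. At 2-fold the counts were 103 higher (0.517%) and 167 lower (0.838%), or 1.35% together. These shares are the background for every count of list members that follows. The lists were chosen with earlier results of these data known, and 209 of the 954 genes in any list were past 1.5-fold. A list share above the background is thus partly set by that choice. Median signal was 6.68 on both arrays. Among 1190 olfactory and vomeronasal receptor genes, which neither ES cells nor early EBs are known to use, 2 were past 1.5-fold, or 0.168%. Olfactory receptor genes had a standard deviation of the difference of 0.147 and a range from -0.47 to 0.67, although their median signal of 4.23 was below that of most genes. Different probe sets of the same gene differed by a pooled standard deviation of 0.146 over 999 genes. Neither value contains the spread between cultures.

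Genes past 1.5-fold were more frequent among those with signal in at least 1 of the cultures. Of 11943 genes that reached the array median in either culture, 5.22% were past 1.5-fold, against 1.46% of the 7995 genes that did not. A gene can reach the median through the culture where it is high, so part of this gap is set by the grouping. By the probe set with the highest signal alone, which gave 295 higher and 429 lower genes at 1.5-fold, there were 16 higher and 21 lower genes past 4-fold and 3 higher and 4 lower past 8-fold. The higher genes had a median signal of 7.03 in untreated EBs and 8.04 with bexarotene, and 121 of the 304 were below the array median in untreated EBs. The lower genes went from a median of 8.06 to 7.00, and 173 of the 437 were below the array median with bexarotene. Set against the ES cell array, 231 of the lower genes had a bexarotene signal within 1.5-fold of that in ES cells. Of the higher genes, 215 had a bexarotene signal more than 1.5-fold above that in ES cells and 54 were within 1.5-fold of it. The genes were selected by their difference between the cultures, and the share of all genes near their ES signal was not counted. How close they lie to ES cells is thus partly set by the selection.

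**Figure D1:**
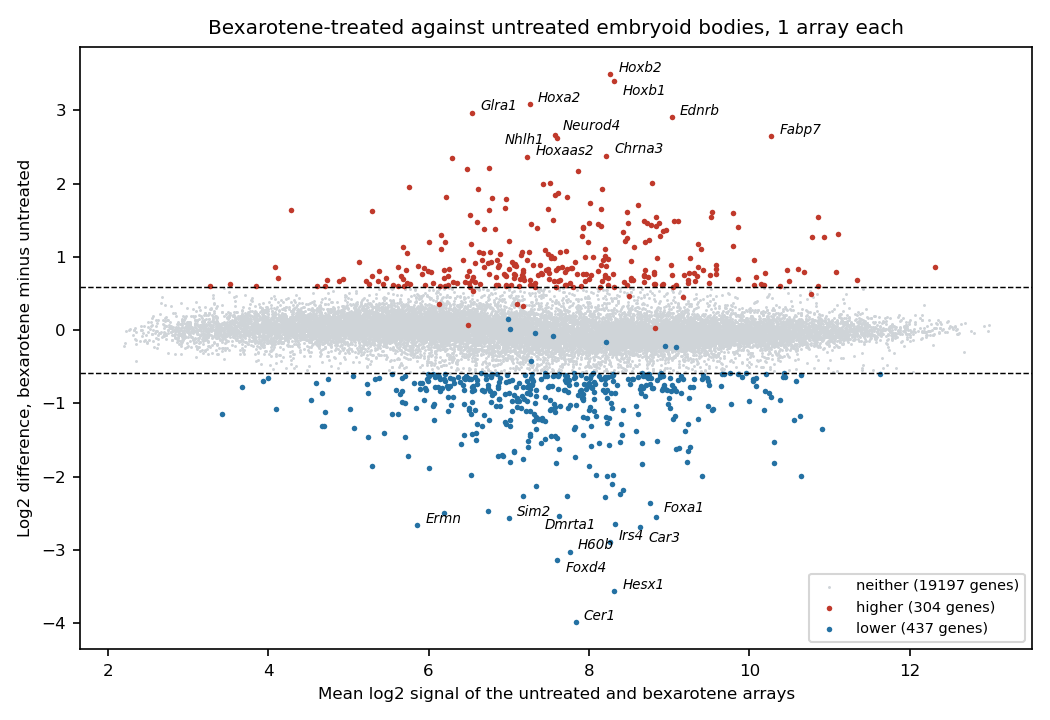
Log2 difference between the bexarotene and the untreated array (y axis) against the mean log2 signal of both (x axis), 1 point per gene, with dashed lines at 1.5-fold. Red points are the 304 higher genes, blue points the 437 lower genes and grey points the others, and the few coloured points between the lines are genes counted through another of their probe sets.

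The 25 largest differences in each direction, among named genes with a signal at or above the array median, covered a range of functions. Higher differences ran from 3.34-fold to 11.3-fold, and 16 of these 25 genes were below the array median in untreated EBs. Lower differences ran from 3.95-fold to 15.8-fold, and 13 of those 25 were below the array median with bexarotene. On the RA array every one of these genes differed from untreated in the same direction. Bexarotene lay farther than RA from untreated in 10 of the 25 higher and 14 of the 25 lower genes. Hoxb2 differed from untreated by 3.06 with RA and 3.49 with bexarotene, and Cer1 by -4.04 and -3.98. Beyond the most extreme genes, Ppp1r17, a phosphatase inhibitor known from Purkinje cells, had a signal of 5.12 in untreated and 7.47 in bexarotene EBs, 5.11-fold higher. Gpm6b, a membrane proteolipid of neural cells, went from 6.78 to 8.95, and Sparcl1, an extracellular glycoprotein made by radial glia, from 6.51 to 8.52. Fez1, which takes part in axon outgrowth, went from 6.65 to 8.49. Pantr1, a non-coding RNA next to the neural factor gene Pou3f3, went from 5.38 to 7.58. Tecrl and Slc44a5, a choline transporter-like gene, were 3.89-fold and 3.80-fold higher.

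On the lower side stood several receptors and secreted proteins. Aplnr, the apelin receptor of mesodermal and endothelial cells, went from 9.94 to 7.59, 5.11-fold lower. Oprk1, the kappa opioid receptor, had 7.45 in untreated and 4.95 in bexarotene EBs, and its signal in ES cells was 4.81. Lgi1, a secreted neuronal protein, went from 8.31 to 6.05, and Pkd1l1, a gene of left-right patterning, from 8.85 to 6.59. Of the 25 lower genes 24 were more than 1.5-fold above ES cells in untreated EBs, while 20 were within 1.5-fold of ES cells with bexarotene. These genes were picked for their large difference from the untreated signal, so both counts are partly set by that choice. Tgfb2, a TGF-beta ligand, lay between the untreated and ES signals, with 10.40 in untreated EBs, 8.41 with bexarotene and 5.83 in ES cells. Cldn1, a tight junction claudin, was 4.36-fold lower, and the other 22 of 23 claudins were not past 1.5-fold. Calb2, the calcium-binding protein calretinin, was 3.95-fold lower.

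**Figure D2:**
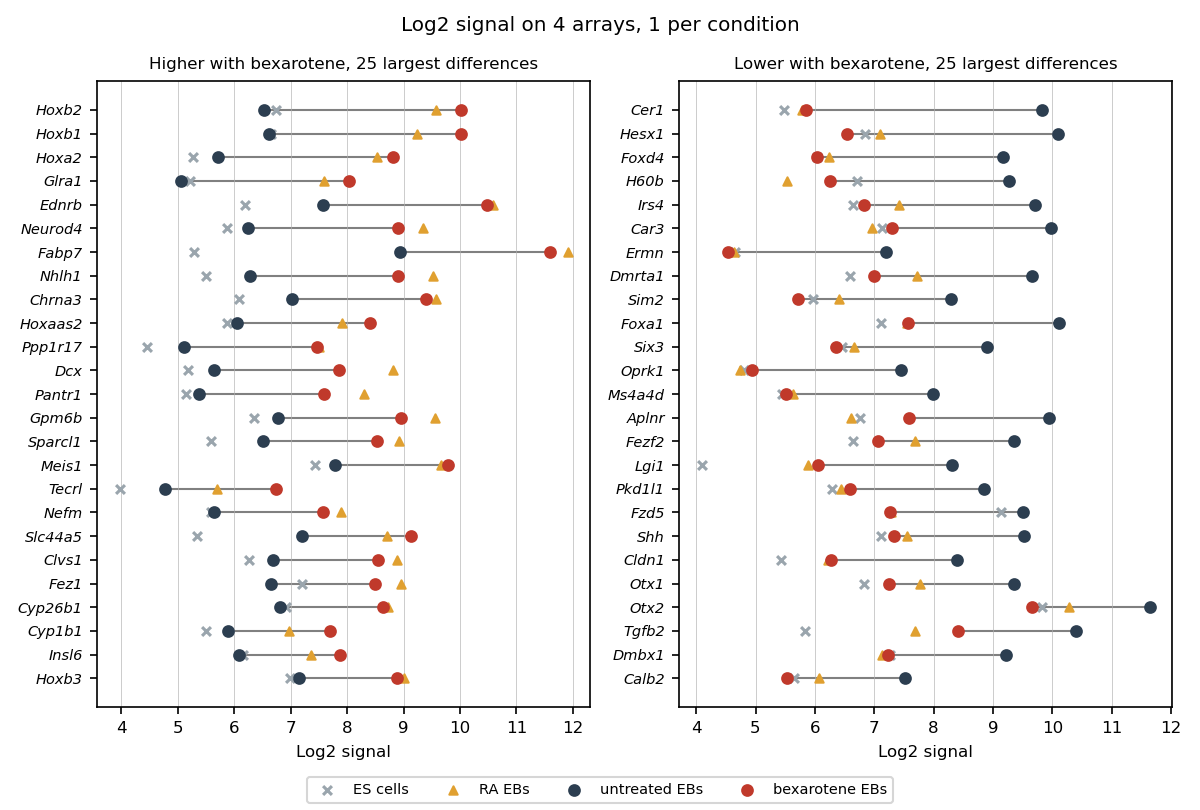
Log2 signal (x axis) on each of the 4 arrays for the 25 named genes of largest difference each way, the largest at the top, with a line joining untreated and bexarotene EBs. On the left bexarotene lies above untreated by 3.34-fold to 11.3-fold, and on the right below it by 3.95-fold to 15.8-fold.

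Of 7 genes of RA breakdown and retinol storage 2 were higher, Cyp26b1 and Cyp26c1, with a median of 0.22. Of 9 retinoid carriers 2 were higher, Crabp1 and Crabp2, with a median of -0.03. Neither list had a lower gene, and the receptor gene most often read as a sign of RA action, Rarb, was not past 1.5-fold. The promoters of Rarb, the beta receptor itself, and Cyp26a1, an RA-degrading enzyme, carry the classical RA response element, a direct repeat with a spacer of 5 bases (DR5). They are shown because they hold the sequence that an RXR-RAR pair is known to bind, with the repeat in capitals. Both are RefSeq sequences of build GRCm38.p6 in the direction of the gene, the 120 bases before the start, at chr14:16575477-16575596 on the minus strand for Rarb and chr19:37697688-37697807 on the plus strand for Cyp26a1.
Rarb: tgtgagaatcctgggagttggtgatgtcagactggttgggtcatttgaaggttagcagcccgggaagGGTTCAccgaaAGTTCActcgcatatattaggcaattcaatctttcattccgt
Cyp26a1: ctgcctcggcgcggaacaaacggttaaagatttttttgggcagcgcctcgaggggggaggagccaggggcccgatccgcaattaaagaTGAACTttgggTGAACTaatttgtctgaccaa

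Both genes were already far above ES cells without ligand. Untreated EBs had a Rarb signal of 8.17, up from 5.86 in ES cells, and bexarotene EBs one of 8.44, a difference of 0.27. For Cyp26a1 the ES signal was 5.75 and those of untreated and bexarotene EBs were 9.60 and 9.87, also a difference of 0.27. Neither reached 1.5-fold. A search of 300-base promoter windows (250 before to 50 after the start) for DR5 repeats of AGGTCA or its variants (GGGTCA was one, another was AGTTCA, and the last was GGTTCA) on either strand found them in 11 of the 15614 genes with a sequence (of 19938), or 0.0704%. None of the 217 higher and none of the 305 lower genes with a sequence held one in this window. The 11 genes had differences from -0.49 to 0.27. Repeats with spacers of 1 and 2 bases, found in 38 and 14 promoters, were likewise in no higher or lower gene. All these repeats were so rare in this window that their absence from so few genes says little.

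The other RA-degrading enzymes differed more. Cyp26b1 had 6.82 in untreated and 8.63 in bexarotene EBs, 3.51-fold higher, and its ES signal was 6.92. Cyp26c1 went from 7.54 to 8.30. Cyp1b1, a P450 that can oxidize retinol, went from 5.88 to 7.70, 3.51-fold higher. These 3 genes were the ones higher among 81 cytochrome P450 genes, and Cyp2j6 and Cyp2j9 were lower. The cellular RA-binding proteins, which carry RA to the nucleus or to its degrading enzymes, were also higher. Crabp2 went from 10.46 to 11.76, 2.48-fold, and Crabp1 from 11.88 to 12.75, 1.82-fold. Of the synthesis enzymes, Rdh10, Aldh1a1, Aldh1a2 and Aldh1a3 had differences of 0.29, 0.17, -0.13 and -0.33, and Cyp1b1 was the 1 higher gene of 17 on that list. Dhrs3, which returns retinal to retinol, differed by 0.10 and the retinol transporter Stra6 by -0.13.

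The receptors themselves did not move as a group. Rxra and Rxrb, the broadly used RXR genes, differed by 0.09 and -0.15, and Rara by 0.13. Rarg was lower, 8.89 against 8.22, after a signal of 10.48 in ES cells. Rxrg was 2.04-fold lower, 7.41 against 6.38. Among 26 orphan and COUP receptor genes, Nr2f1 and Nr2f2, the COUP transcription factors of hindbrain and mesenchyme, were higher by 2.44-fold and 1.56-fold. Nr2e1, the Tailless gene of forebrain progenitors, was 2.23-fold lower. Of 26 genes listed as direct RA targets, 11 were higher and 1, Tal2, was lower, with a median difference of 0.30 against -0.008 over all genes.

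LXR and PPAR targets had few or no members past 1.5-fold, and targets of the other partners were not listed. None of 12 partner receptor genes was past 1.5-fold, and the vitamin D receptor Vdr came nearest, with 6.27 untreated and 6.85 with bexarotene. Of 19 LXR targets none was past 1.5-fold and the median difference was 0.14. Abca1, the cholesterol exporter, had 7.51 in untreated and 7.92 in bexarotene EBs, and Srebf1, the factor of fatty acid synthesis, 8.88 and 9.08. Mylip, which degrades the LDL receptor, went the other way, 8.48 against 8.04. Of 23 PPAR targets Pdk4, a kinase that limits glucose oxidation, was 1.55-fold higher and Cd36, a fatty acid transporter, 1.70-fold lower. Cd36 was below the array median in both cultures and drops out when such probe sets are left out, and a second PPAR target passed 1.5-fold higher after quantile normalization or loess. None of 23 sterol and fatty acid synthesis genes was past 1.5-fold.

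**Figure D3:**
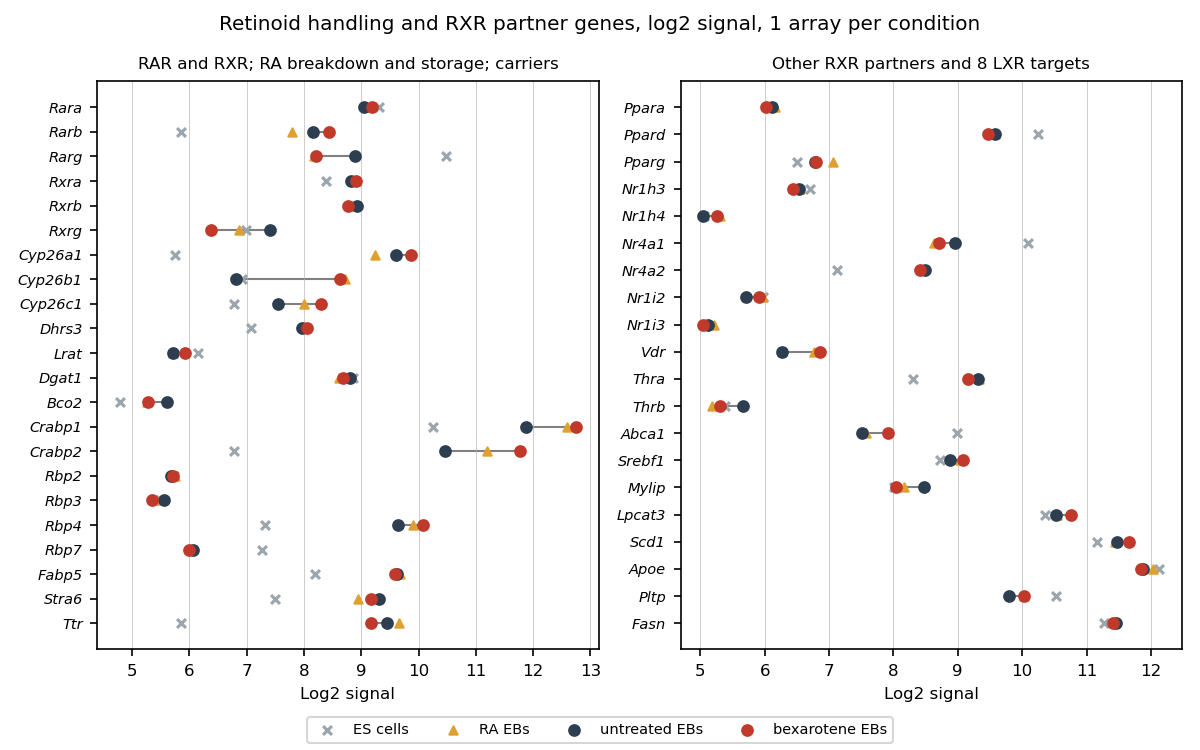
Log2 signal (x axis) on the 4 arrays for RAR and RXR genes, RA breakdown and storage genes and carriers (left) and for other RXR partner receptors and 8 LXR targets (right), with a line joining untreated and bexarotene EBs. The lines are long for Cyp26b1 (6.82 to 8.63), Crabp2 (10.46 to 11.76) and Rxrg (7.41 to 6.38) and short for Rarb, Cyp26a1 and the genes on the right.

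Anterior Hox genes, which give hindbrain segments their identity, were higher, and posterior ones were not. Of 14 measured genes of paralog groups 1 to 5, 8 were higher and none lower, with a median difference of 0.64. Groups 6 to 13, with 23 genes measured, had none past 1.5-fold and a median of 0.08. When probe sets below the median on both arrays were left out, 5 genes of groups 1 to 5 remained higher. Within the Hoxb cluster the difference was 3.41 for Hoxb1, 3.49 for Hoxb2, 1.74 for Hoxb3, 0.72 for Hoxb4, 0.09 for Hoxb5, 0.15 for Hoxb6 and 0.11 for Hoxb9. In the Hoxa cluster it was 3.09 for Hoxa2, 1.20 for Hoxa3, 0.33 for Hoxa4, 0.62 for Hoxa5, 0.19 for Hoxa7 and -0.04 for Hoxa9. Groups 1 to 3 thus held the larger differences among the genes measured in these clusters, with no strict order by paralog number. Hoxc4, at low signal, was 1.59-fold higher. Hoxaas2, an antisense RNA of the Hoxa cluster, had 6.05 in untreated and 8.41 in bexarotene EBs, 5.14-fold higher, and it lies between Hoxa2 and Hoxa3.

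The promoters of Hoxb1 and Hoxa2 are shown because both genes are among the 3 highest by difference and both hold a match to TGATNNAT, the core of the sites that Hox proteins bind together with Pbx. The match is in capitals, and in Hoxa2 it lies on the opposite strand. The sequences are the 200 bases before the start in the direction of the gene (RefSeq, GRCm38.p6), at chr11:96365558-96365757 on the plus strand and chr6:52164832-52165031 on the minus strand.
Hoxb1: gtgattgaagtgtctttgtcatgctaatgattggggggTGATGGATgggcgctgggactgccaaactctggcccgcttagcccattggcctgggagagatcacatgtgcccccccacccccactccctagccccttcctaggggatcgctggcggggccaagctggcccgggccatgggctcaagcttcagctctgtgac
Hoxa2: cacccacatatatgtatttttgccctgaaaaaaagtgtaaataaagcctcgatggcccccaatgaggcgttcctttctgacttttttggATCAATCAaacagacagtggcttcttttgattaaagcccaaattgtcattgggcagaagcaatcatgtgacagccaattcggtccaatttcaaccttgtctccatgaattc
TGATNNAT on either strand was in 18 of the 217 higher promoters (8.29%), in 21 of the 305 lower ones (6.89%) and in 1253 of all 15614 (8.02%), shares that lie close to each other.

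The Hox cofactor genes Meis1 and Meis2 were higher as well. Meis1 had 7.78 in untreated and 9.79 in bexarotene EBs, 4.02-fold higher, and Meis2 10.29 and 11.56, 2.42-fold higher. They were the ones past 1.5-fold among 8 Meis, Pbx and Pknox genes. Of 20 hindbrain segment regulators 9 were higher and none lower, but 6 of these are Hox genes counted above, and the other 3 are Gbx2, Cyp26c1 and Nr2f1. Egr2, the gene of hindbrain segments 3 and 5, differed by -0.30. At the boundary of midbrain and hindbrain, Gbx2, a gene of its hindbrain side, was 1.70-fold higher and Pax8 1.77-fold higher, while En1 and Pax5 were 3.61-fold and 1.87-fold lower. Wnt1 and Fgf8, the signals made at that boundary, differed by -0.51 and -0.01.

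Along the back-to-belly axis of the neural tube, dorsal progenitor genes were higher and genes of its floor were lower. Of 24 dorsal and intermediate spinal cord progenitor genes 8 were higher and none lower, with a median of 0.25. Dbx1, which marks intermediate progenitors, went from 8.73 to 10.34, 3.06-fold higher, and Pax6 from 8.13 to 9.55. Zic1, Olig3 and Msx3, genes of the dorsal tube, were 1.98-fold, 1.94-fold and 1.77-fold higher. Of 21 ventral neural tube genes 8 were lower and 1, Boc, was higher, with 6 lower after quantile normalization and 7 after loess.

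The ventral list turned on Sonic hedgehog and its pathway. Shh, the ligand made by notochord and floor plate, had 9.52 in untreated EBs and 7.33 with bexarotene, 4.55-fold lower and close to the 7.11 of ES cells. Ptch1 and Gli1, receptor and effector that the pathway induces, were lower by 1.51-fold and 1.55-fold, and Gli1 no longer passed 1.5-fold after quantile normalization or loess. Hhip, a further induced inhibitor, differed by 0.10. Nkx2-9 and Nkx2-2, ventral factors next to the floor plate, were 3.03-fold and 2.73-fold lower, and Nkx6-1 was 1.60-fold lower. Olig2, the motor neuron progenitor factor, differed by 0.11. Boc, a co-receptor for hedgehog ligands found on dorsal cells, went from 8.36 to 9.86, 2.82-fold higher, and the co-receptor Gas1 differed by 0.46. Spon1, the floor plate protein F-spondin, went from 10.13 to 8.32. In all, 11 of 21 node, notochord and floor plate genes were lower and 1, the Nodal antagonist Lefty1, was higher, with a median of -0.60. Among these lower genes Shh, Foxa2, Ptch1 and Gli1 stand in the ventral list too. Foxa1, Foxa2, Cer1 and Gsc stand in the anterior and definitive endoderm list below, so the lists are not separate results. Lefty1 drops out when probe sets below the median on both arrays are left out.

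Many genes of neural progenitors and new neurons were higher, while factors of neuron subtypes went both ways. Mean signal of 4 neural progenitor markers (Sox1, Pax6, Fabp7, Nes) was 8.81 in untreated and 10.1 in bexarotene EBs, and that of 4 neuron markers (Tubb3, Dcx, Elavl3, Stmn2) 7.53 and 8.55. In ES cells these means were 7.03 and 7.96, so the neuron markers were higher there than in untreated EBs. The neuron set is thus not a reading of neurons alone. Within these markers Sox1 differed by 0.10 and Stmn2 by -0.18, so the means were not carried by every gene. Of 28 progenitor and radial glia genes 8 were higher and none lower. Of 30 proneural and early neuron factors 13 were higher and none lower, with a median of 0.40. Neurog1, a factor that starts neuron formation, went from 7.22 to 8.62, and Neurod1, which acts after it, from 6.11 to 7.78. Neurog2 differed by 0.24. Of 38 neuron subtype transcription factors 4 were higher (Pou3f2, Pou3f3, Gata2 and Onecut1) and 7 lower (Lhx1, Lhx5, En1, Tal2, Sim1, Sim2 and Barhl2), with a median of 0.08. Ebf1, Ebf2 and Ebf3, which accompany the exit of neurons from the progenitor layer, were 2.75-fold, 2.13-fold and 2.68-fold higher, and St18 of the Myt1 family was 2.78-fold higher. Of 27 Notch pathway genes Dll1, Hes5 and Nrarp, a ligand and 2 targets, were higher by 1.58-fold, 1.73-fold and 2.32-fold, and Notch2 was 1.57-fold lower.

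The neuron's skeleton was higher at many points, although not throughout. Of 32 cytoskeleton and growth cone genes 11 were higher and 1 was lower. The intermediate filament genes Ina and Nefl went from 8.75 to 10.30 and from 9.16 to 10.57, and Nefm was 3.82-fold higher. Nefh, the heavy neurofilament of mature axons, differed by 0.04. Tubb2b and Tubb3, tubulins of young neurons, were 2.41-fold and 2.05-fold higher, whereas Tubb4a went from 9.89 to 8.51. Mapt and Map2, which stabilize microtubules, differed by 0.10 and -0.08.

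Genes for making and reading transmitters stood on both sides. Of 38 vesicle and SNARE genes 4 were higher and 2, Syt5 and Sv2a, were lower. The higher ones were Snap25, a SNARE protein, and the vesicular transporters for acetylcholine (Slc18a3), monoamines (Slc18a2) and glutamate (Slc17a6), by 1.66-fold to 1.86-fold. Gad1, which makes GABA, differed by -0.06. Of 16 nicotinic receptor subunits 3 were higher, Chrna3 by 5.22-fold, Chrna5 by 2.47-fold and Chrna4 by 1.85-fold. Chrnb4, the neighbour of Chrna3 and Chrna5 in the genome, differed by 0.39. The glycine receptor subunit Glra1 went from 5.06 to 8.03, while Glra3 was lower at a signal of 4.06 in untreated EBs. Of 39 voltage-gated and 29 inward and other potassium channel genes none was higher and 5 were lower, among them Kcnh5 and Kcnj3, both by 1.15 on the log2 scale.

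Axon guidance genes went both ways. The receptors Robo2, which reads Slit proteins, and Dcc, which reads netrin, were higher by 2.82-fold and 2.33-fold. Slit2, a midline ligand of Robo2, was 2.05-fold lower, at 8.96 with bexarotene. Sema3e and Sema3c, secreted semaphorins, and their receptor Nrp1 were lower by 2.32-fold, 1.55-fold and 1.69-fold, and the membrane-bound Sema5b was 2.19-fold higher. In all, 4 of 40 genes of this list were higher and 4 lower. None of 21 ephrin and Eph receptor genes was past 1.5-fold. Of 29 neuropeptide and granule genes 5 were lower and 2 higher. Penk, the enkephalin precursor, went from 9.07 to 7.10, and Trh, thyrotropin-releasing hormone, from 11.21 to 9.40.

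The neural crest list had 10 of 25 genes higher and none lower, and several of them stand in the dorsal list too. Tfap2b, with 7.37 in bexarotene EBs, was 2.59-fold higher, and Tfap2a was 1.53-fold higher. Ret, a receptor tyrosine kinase of migrating enteric crest and of kidney, went from 6.79 to 8.30. Sox10 and Foxd3, defining genes of migrating crest, differed by 0.48 and 0.15, and Sox9 and Snai2, of crest formation, by -0.53 and 0.18. The list median was 0.18.

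**Figure D4:**
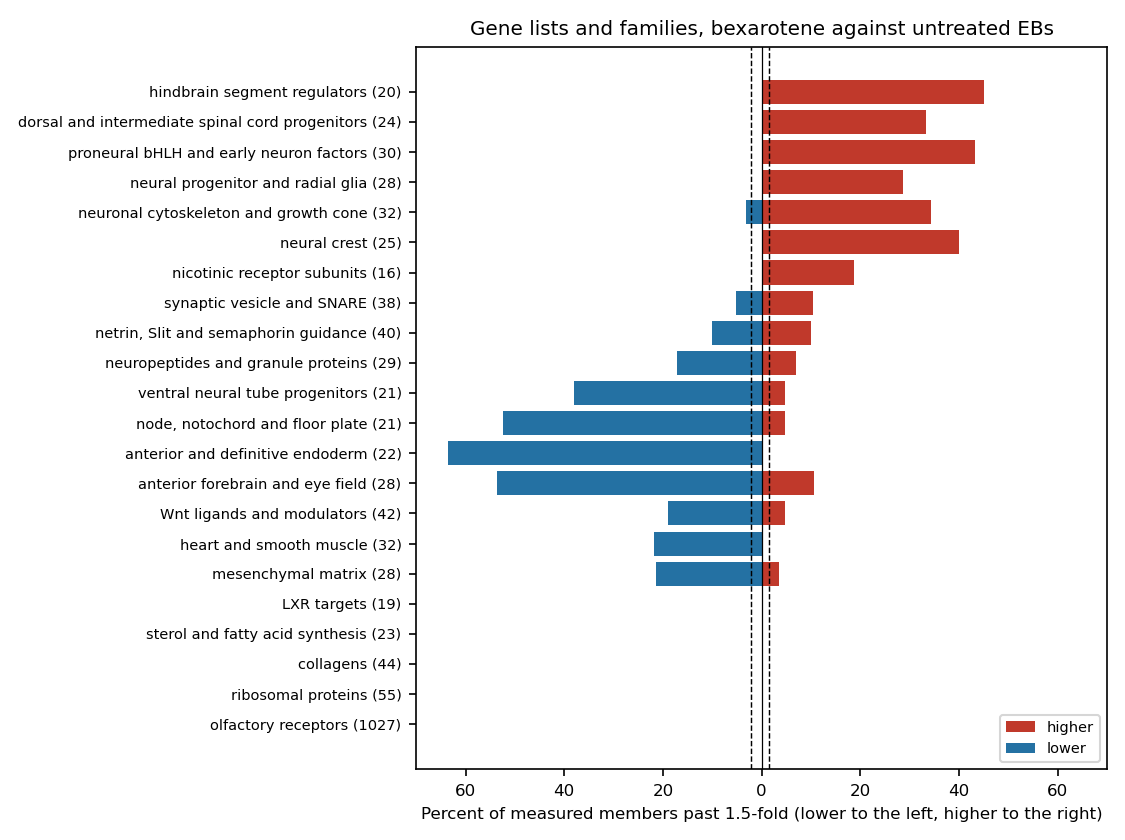
Share of measured members past 1.5-fold (x axis, percent) for 22 gene lists and families with the number measured in brackets, lower to the left in blue and higher to the right in red. The dashed lines mark the background over all genes, 2.19% lower and 1.52% higher, and the bars reach from 9 of 20 hindbrain regulators higher to 14 of 22 anterior and definitive endoderm genes lower.

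Anterior endoderm and forebrain lists held the largest shares of lower genes among the lists read here, and some genes, such as Otx2 and Hesx1, stand in both. Of 22 anterior and definitive endoderm genes 14 were lower and none higher, with a median of -0.996. Dkk1, a secreted Wnt inhibitor needed for the head, went from 11.08 to 9.55, with 8.11 in ES cells. Hhex and Lhx1, transcription factors of the anterior endoderm and head organizer, were 1.97-fold and 2.02-fold lower. The 4 markers of definitive endoderm had a mean signal of 9.09 in untreated and 7.81 in bexarotene EBs. Cer1 and Foxa2, lower by 3.98 and 1.15 on the log2 scale, made up that difference, while Sox17 and Cxcr4 differed by -0.01 and -0.0005. Visceral and parietal endoderm genes, by contrast, had 1 lower gene, Spink1, of 26 and a median of 0.07. Gata4 and Gata6, used by that lineage, differed by 0.25 and 0.18.

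Of 28 forebrain and eye field genes 15 were lower and 3 higher, with a median of -0.72. Fezf1, Fezf2 and Lhx5, factors of the anterior neural plate, were 3.93-fold, 4.85-fold and 3.17-fold lower. Otx1 went from 9.35 to 7.24. Emx2 and Lhx2, cortical genes, were both 1.77-fold lower. The 3 higher genes, Pax6, Dlx2 and Sfrp2, are not restricted to the forebrain. Sfrp2, a secreted Wnt antagonist of neural tissue, went from 10.08 to 11.62.

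Wnt genes as a whole had a median difference near that of all genes, and single members stood out. The Wnt receptor Fzd5, used in anterior neural tissue and endoderm, had 9.50 in untreated and 7.27 in bexarotene EBs, 4.70-fold lower and thus below its ES signal of 9.13 too. Its relative Fzd8 was 2.43-fold lower. Of 42 Wnt ligands and modulators 8 were lower and 2 higher, with a median of -0.03. Among the lower were Rspo3 and Lgr5, a Wnt-enhancing ligand and its receptor, by 3.03-fold and 2.91-fold, and Lef1, a nuclear effector, by 2.29-fold. The higher ones were Sfrp2, given above, and Wnt7a, a ligand of the neural tube, which went from 5.73 to 7.31. Of 52 genes of the TGF-beta, Nodal and BMP pathways 10 were lower and 5 higher. With probe sets below the median on both arrays left out, 3 were higher. Bmp2, Bmp5 and Bmp7, all ligands, were lower by 1.81-fold, 2.30-fold and 1.89-fold, and Id2 and Id4, which BMP signals induce, were higher by 1.61-fold and 1.79-fold. The BMP antagonists Chrd, Nog and Chrdl1 were also lower, by 1.59-fold, 1.66-fold and 1.81-fold.

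Of 31 primitive streak and tail bud genes 7 were lower and 1, Dll1, was higher. Eomes, Mixl1 and Gsc, early streak genes, were 1.90-fold, 1.59-fold and 2.36-fold lower, with Mixl1 below the array median on both arrays. Cdx1, Cdx4 and Wnt3a, of the posterior streak, differed by -0.17, -0.05 and 0.09. Brachyury (T), a marker of the streak, was not measured here under that symbol, and the article reports it lower with bexarotene than without ligand. Among 16 genes of the primed epiblast 5 were lower and 1 was higher. Fgf5, its defining ligand, went from 9.15 to 7.62, and Pim2, a kinase, from 9.97 to 8.75.

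Mesoderm genes went both ways. Of 24 somite and paraxial mesoderm genes 3 were higher, Meox1, Pax3 and Pax7, of which Pax3 and Pax7 are dorsal neural genes too. The 4 lower ones were Foxc1, Sim1, Dmrt2 and En1, and the median was -0.12. Of 27 intermediate and lateral mesoderm genes 5 were higher and 4 lower, and the median was 0.03. Osr1, the earliest marker of intermediate mesoderm, had 8.63 with bexarotene against 7.22 without ligand, 2.65-fold higher, and 6.92 on the RA array. Pax8 and Ret, kidney genes that neural tissue uses too, and the limb genes Prrx2 and Pitx1 were higher, by 1.77-fold, 2.84-fold, 1.61-fold and 1.53-fold. Lhx1, Sall1, Prrx1 and Cfc1 were lower, by 2.02-fold, 1.56-fold, 1.90-fold and 1.55-fold. Foxf1, of lateral mesoderm, had 9.11 without ligand, 9.13 with bexarotene and 7.85 on the RA array. The bexarotene signal was thus above that of both other EB arrays for Osr1 and close to the untreated one for Foxf1, in single cultures. The genes of largest difference given above went the same way with RA, so Osr1 and Foxf1 do not stand for them.

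Of 32 heart and smooth muscle genes 7 were lower and none higher. Acta2 and Myocd, of smooth muscle, were 2.02-fold and 1.77-fold lower, and Tnnc1, a troponin of heart muscle, 1.76-fold. Nkx2-5, the defining cardiac factor, differed by 0.09. Of 27 endothelial and primitive blood genes 4 were lower and 1, the blood and neural factor Gata2, was just past 1.5-fold higher, at 8.09 with bexarotene. The lower ones were the embryonic globins Hba-x and Hbb-bh1, by 2.69-fold and 3.27-fold, and Kdr and Cdh5 of vessel walls, by 1.99-fold and 1.58-fold. Pecam1 differed by 0.30. Mean signal of the 4 primitive blood markers was 7.34 in untreated and 6.48 in bexarotene EBs, and the globins carried most of that difference, since Gata1 and Klf1 differed by -0.18 and -0.13. Fibroblast markers (Lum, Postn, Dcn and Thy1) went from a mean of 7.27 to 6.25, and Lum and Postn carried most of that difference. Postn and Lum, matrix proteins, were 2.91-fold and 3.60-fold lower, yet none of 44 collagen genes was past 1.5-fold. Among adhesion genes Cdh13 and Pcdh7 were 2.69-fold and 2.72-fold lower and the integrin Itgb8 2.35-fold higher.

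Some pluripotency genes were higher with bexarotene. Of 25 genes 4 were higher and 1, Lin28a, was lower by 1.51-fold, with a median of 0.28. Lin28a no longer passed 1.5-fold after quantile normalization or loess. Pou5f1, the core factor Oct4, had 8.78 in untreated and 8.81 in bexarotene EBs, far below the 11.67 of ES cells. Nanog had 9.18 and 9.59. Nr0b1, Dppa2 and Utf1, genes of undifferentiated cells, were 1.80-fold, 1.76-fold and 1.73-fold higher, and each remained below its ES signal. Genes of general upkeep differed little. None of 13 housekeeping, 55 ribosomal protein, 39 proteasome or 34 respiratory complex I genes was past 1.5-fold. Of 27 cell cycle genes Ccnd1 alone was past it, 1.52-fold higher.

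MicroRNA genes were read by the array as gene or precursor signal, not as mature microRNA, and their median signal in untreated EBs was only 5.10. Of 296 such genes 5 were higher (1.69%) and 10 lower (3.38%), against 1.52% and 2.19% of all genes, and the median difference was 0.002. As a class they thus lay near the background. The counts were 2 and 2 when probe sets below the median on both arrays were left out. The mature sequences (RefSeq, GRCm38.p6, 271 of 296 genes matched) are shown for the lower and the higher genes of known clusters or neural use, with the seed, bases 2 to 8, in capitals, because the seed decides which messages a microRNA can bind.
miR-302b-3p, lower: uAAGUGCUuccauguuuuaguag
miR-302d-3p, lower: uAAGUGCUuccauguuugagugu
miR-302c-3p, lower: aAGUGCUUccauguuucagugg
miR-367-3p, lower: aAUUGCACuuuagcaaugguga
miR-363-3p, lower: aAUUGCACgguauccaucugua
miR-17-5p, lower: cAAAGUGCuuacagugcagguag
miR-18a-5p, lower: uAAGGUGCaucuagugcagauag
miR-19a-3p, lower: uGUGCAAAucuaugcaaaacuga
miR-219a-5p, higher: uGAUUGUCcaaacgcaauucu
miR-181b-5p, higher: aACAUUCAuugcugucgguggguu
miR-100-5p, higher: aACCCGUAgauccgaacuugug

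All 5 genes of the cluster of miR-302 and miR-367, microRNAs of pluripotent and epiblast cells, were lower, but all 5 lay below the array median in both cultures and drop out when such probe sets are left out. Mir302a went from 5.36 to 4.05, Mir302b from 4.64 to 3.56, Mir302c from 5.97 to 4.51, Mir302d from 6.44 to 4.97 and Mir367 from 3.995 to 2.86. In ES cells the 5 signals were 3.38, 3.67, 3.58, 4.39 and 2.81, so untreated EBs had the highest value for each gene. The genes lie side by side in 1 host transcript and are not independent measurements. Mir302b and Mir302d share the seed AAGUGCU, and Mir367 shares AUUGCAC with Mir363, which lies elsewhere, on the X chromosome, and was 1.93-fold lower. In the cluster that begins with miR-17, Mir17, Mir18 and Mir19a were lower by 1.57-fold, 1.63-fold and 1.74-fold, and their neighbours Mir19b-1 and Mir20a differed by -0.50 and -0.28.

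Mir219a-2, whose microRNA is known from neural cells and myelination, had 6.44 in untreated and 8.43 in bexarotene EBs, 3.99-fold higher. Mir181b-1 went from 4.48 to 6.10, while Mir181a-1 beside it differed by 0.17 at a signal of 3.10. Mir100 went from 3.65 to 4.51. Mir10a, which lies in the Hoxb cluster near Hoxb4, differed by -0.02 at a signal of 2.88.

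**Figure D5:**
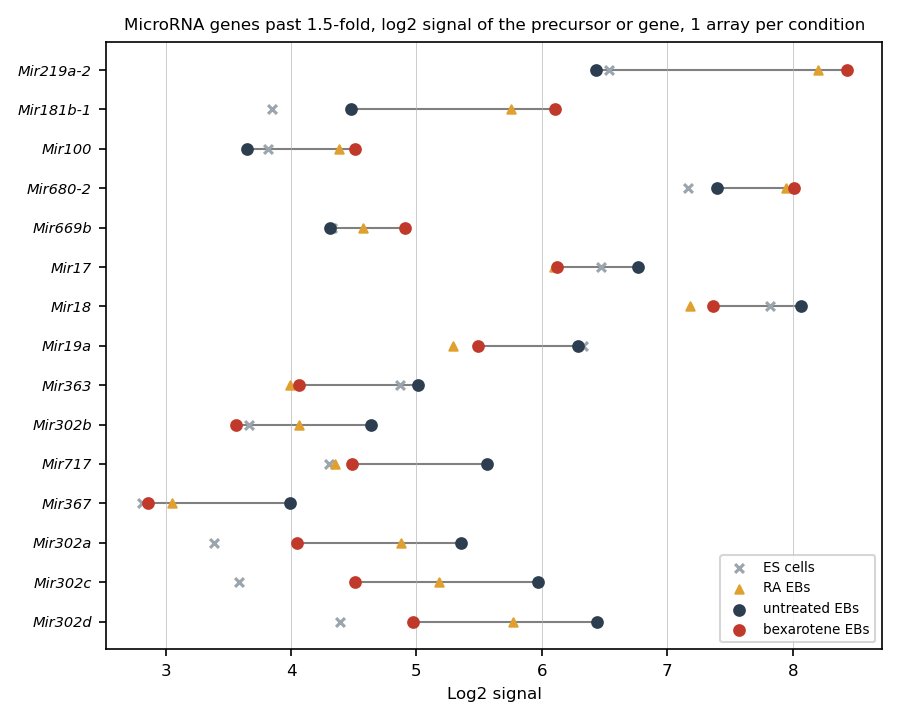
Log2 signal (x axis) on the 4 arrays for the 15 microRNA genes past 1.5-fold, with a line joining untreated and bexarotene EBs. The 5 genes of the cluster of miR-302 and miR-367 lie lower with bexarotene by 2.10-fold to 2.76-fold, and Mir219a-2 lies 3.99-fold higher.

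Genes with the same direction also lay next to each other in places. In RefSeq order on GRCm38.p6, 110 of the 741 genes past 1.5-fold had a measured neighbour past it in the same direction, and 10 runs held 3 genes or more. Besides the Hox and microRNA clusters these included Jak2, Insl6 and Rln1 on chromosome 19, all higher. Jak2, a kinase of cytokine receptors, went from 7.75 to 8.72, and the relaxin-family hormone genes Insl6 and Rln1 from 6.08 to 7.87 and from 7.27 to 8.73. On chromosome 16 Dppa4, Dppa2 and Morc1, all active in ES cells, were higher, Morc1 by 1.69-fold and Dppa4 through another of its probe sets than the one with the highest signal. On chromosome 13 Ocln and Marveld2, both tight junction proteins, were lower by 1.60-fold and 1.94-fold, next to Naip5 and Naip6, near-identical copies whose probes may not tell them apart. These runs were picked out after their values were seen.

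Genes with several probe sets give a limited view of how far the arrays repeat a value within a gene. Of the 741 genes 48 have several, in 43 of them all probe sets had the same sign, and in 15 all were past 1.5-fold. A gene counts here through a probe set past 1.5-fold with none past it the other way, so this agreement is partly set in advance. Spef2, for example, counted as lower through 1 of its 22 probe sets, which ranged from -0.66 to 0.13. Fat3, a giant cadherin of neural tissue, had 15 probe sets, with differences from 0.93 to 1.72. Srgap3, a Slit-Robo pathway protein, ranged from 1.14 to 1.26 and Npas3, a neural transcription factor, from 1.07 to 1.09. Kif26b, a kinesin of mesenchyme, ranged from -1.39 to -0.90. Hmcn1, a matrix protein with 77 probe sets, ranged from -1.35 to 0.16. Such probe sets share the same RNA, so they bear on the measurement and not on the cultures.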

How the data were processed

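Total RNA of each culture was labelled and hybridised to 1 Affymetrix mouse array. The log2 signals deposited by the authors were used as given. The article names RMA for background correction, normalization and summary, while the submitters' notes name GCRMA in Affymetrix Expression Console, and this was not settled from the values. Of 35556 probe sets 21789 have 1 gene symbol, 1621 have several and 12146 have none. A gene stands by its probe set with the highest mean over the 4 arrays. Scripts used Python 3.11.15, pandas 2.3.3 and statsmodels 0.14.6. In simulated data for bexarotene minus untreated, 200 of 200 genes set 3-fold apart among 19938 were recovered and 0 others were called. The simulated noise was small against the 1.5-fold threshold and held no spread between cultures. This checks the counting steps only and not how far the calls would repeat.

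With 1 array per condition, which limits the precision, no test was made. The 46 lists and 39 families were chosen with earlier results of these data known. Genes named were drawn from the 25 largest differences in each direction, without gene models and small RNAs and with the higher signal at or above the array median, all list or family members past 1.5-fold and up to 4 others of each list. Others named, such as those of the neighbour and several-probe-set paragraphs, were chosen after their values were seen. Alternatives were a 2-fold threshold, quantile normalization, loess with a span of 0.3, a filter on low signal and the mean of a gene's probe sets. Scanner files were not processed again.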

Additional observations from a re-analysis of the deposited data

How the results depend on the processing

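With a 2-fold threshold 103 genes were higher and 167 lower, in place of 304 and 437. The other alternatives left both counts within 1.5-fold of those values, from 254 to 329 higher and from 368 to 425 lower. Quantile normalization kept the call of 698 of the 741 genes, loess 696, leaving out probe sets below the median on both arrays 622, and the mean of the probe sets 716. Of the 232 genes past 1.5-fold named by rule, none changed direction. Averaging probe sets moved Dppa2 to 1.05 and Pou3f2 to 1.94 on the log2 scale. Leaving out low probe sets moved 14 of 84 list or family medians by more than the spread between probe sets. Among them were those of direct RA targets, to 0.64, of dorsal progenitors, to 0.57, and of anterior Hox genes, to 2.42. This filter keeps a probe set that reaches the median on either array, so a gene can pass through the culture where it is high. The moves are thus partly set by the filter and give no added weight to these lists. No paired analysis was possible because each condition has 1 array, and for the same reason no array could be left out. Low signal limits what can be read for microRNA genes and for the genes below the array median.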

Other observations

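Probe sets outside the named genes were read as values only. Of 1621 probe sets with several symbols, 36 were higher and 19 lower past 1.5-fold, or 3.39%, against 3.82% of those with 1 symbol. Of 12146 probe sets with no symbol in the annotation used, 406 were higher and 433 lower, or 6.91%, at a median signal of 5.79 in untreated EBs. Within these, 6617 probe sets whose numbers come before the first named one had 246 higher and 379 lower, or 9.45%, and the other 5529 had 160 higher and 54 lower, or 3.87%. What the former measure is not given in the sources used here.

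A group of zinc finger genes active in ES cells lies near each other on chromosome 4, and it was picked out after its values were seen. Zfp980 had 8.76 with bexarotene against 7.65 without ligand, 2.16-fold higher, while its signal was 8.91 on the RA array and 11.08 on the ES cell array. Zfp600 was 1.82-fold and Zfp979 1.58-fold higher, while Zfp985, Zfp982 and Zfp991 differed by 0.43, 0.21 and 0.02. These genes are close copies of one another, and their probes may not tell them apart.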
